A study of Mus musculus with 3 samples.

Results

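Matrix metalloproteinases (Mmp), disintegrin metalloproteinases (Adam), their relatives with thrombospondin repeats (Adamts) and the tissue inhibitors of metalloproteinases (Timp) were examined in ureteric bud cells of the early mouse kidney. Members were all genes whose symbol is Mmp, Adam, Adamts or Timp followed by a number and that had a probe set carrying a single symbol, which gave 78 of the 19938 genes named in that way. They comprised 22 Mmp, 34 Adam, 18 Adamts and 4 Timp genes, and the rule used symbols and no signal. Mmp enzymes are zinc proteases, made as inactive precursors, that cut collagens, laminins and other matrix proteins. Most are secreted, and a few are held in the cell membrane by a transmembrane segment or a glycosylphosphatidylinositol (GPI) anchor. Adam proteins span the membrane and are best known for releasing growth factors, receptors and adhesion proteins from the cell surface, although several have lost the protease activity. Adamts enzymes are secreted and cut proteoglycans and procollagens, and Timp proteins block the active site of many of these enzymes. The ureteric bud advances and branches within a matrix and a basement membrane that such enzymes can remodel.

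The samples formed 1 group of 3 arrays, which hold ureteric tip cells from Tg(Hoxb7-EGFP)33Cos embryos of the CD-1 strain at 10.5 dpc (Theiler stage 18, sex given as unknown). Each array carried the RNA of 1 bud that was microdissected, dissociated with trypsin and sorted for the green fluorescence that Hoxb7 regulatory sequence drives in the nephric duct and bud. The RNA was amplified in 1 round, and no bud was pooled with another. The labels do not say whether the buds came from different embryos, so the p-values measure only the spread between these 3 samples.

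Values are the deposited signals on a log2 scale, and a gene is called above background where its mean over the 3 arrays exceeded the 95th percentile of the 1035 olfactory receptor probe sets of the same array (5.40, 5.45 and 5.41 log2 on arrays 1, 2 and 3) in limma's one-sided moderated test at an adjusted p under 0.05. By this measure 12 of 12 markers of the bud epithelium were above background, against 2 of 8 of metanephric mesenchyme (Cited1 and Sall1), 2 of 9 of stroma (Col1a1 and Col3a1) and 2 of 8 of leukocytes (Cx3cr1 and Cd68). Endothelial markers were above it in 7 of 10 and erythroid markers in 3 of 7 measured genes. The endothelial genes averaged 6.60, 5.82 and 6.98 log2 on arrays 1, 2 and 3, and 10 of 10 were lowest on array 2. In these bulk samples fewer cells of a type and less RNA per cell cannot be told apart. Many values in the table are the same number on every array: this held for 52 of the 78 members (66.7%) and for 51.7% of all genes. An SD of 0 is then a property of the deposited table, and the p-value of such a gene takes its spread from the 3 background levels and limma's prior.

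Of the 78 members 27 were above background (34.6%), against 53.0% of all genes tested. Relative to background the median was -0.48 log2 for members and 0.22 log2 for all genes. Membrane-anchored proteases, which are the Adam genes and 6 of the Mmp genes, were above background in 15 of 40 (37.5%). Secreted proteases were above it in 10 of 34 (29.4%) and Timp inhibitors in 2 of 4. The membrane-anchored class is drawn by family, and some of its Adam members, among them Adam11, Adam22 and Adam23, have no protease activity. The membrane-anchored count contains 22 Adam genes that are known mainly from testis or epididymis, of which 1 was above background. Without these genes it was 14 of 18 (77.8%), but no genes were left out of the other classes. The lists were made with earlier results of these data known, so this share is a description only. At the 99th percentile of olfactory receptors, 5 membrane-anchored proteases in all were called. No test was made between the classes, whose members include paralogues of similar sequence. Of the 78 members 9 lay within 0.2 log2 of the background level, among them Adam12, Adam19, Mmp23, Mmp24 and Mmp28, which were called above it, and Mmp7, Mmp10, Mmp17 and Adamts4, which were not.

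**Figure D1:**
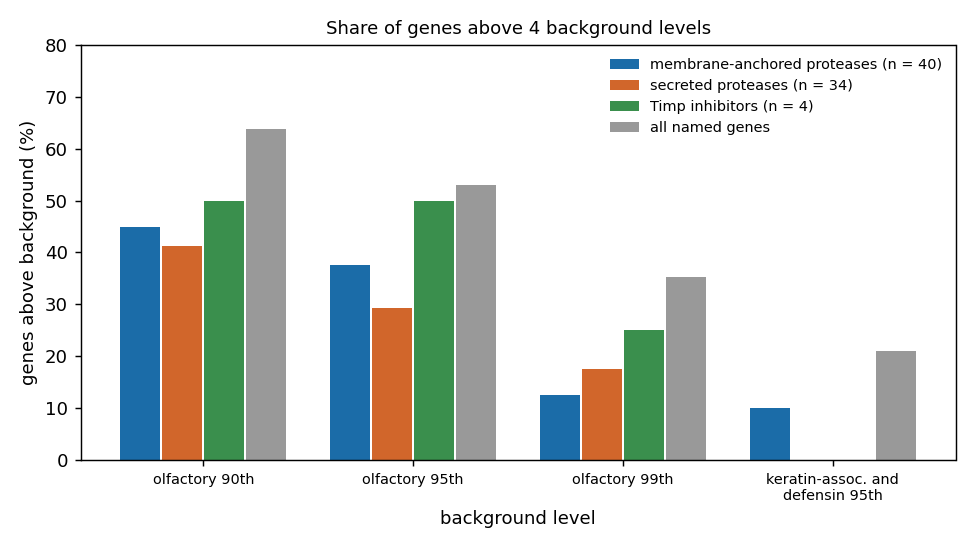
Bars give the percentage of genes above background (vertical axis) for membrane-anchored proteases, secreted proteases, Timp inhibitors and all named genes at 4 background levels (horizontal axis). The shares of membrane-anchored and of secreted proteases are below that of all genes at each level. At the level set by keratin-associated proteins and defensins 10% of the membrane-anchored and 0% of the secreted proteases are left. Probe sets of a gene were averaged, and the highest ones of Adamts9 and Adamts17 lay over that level.

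At the strictest of the background levels the members called were transmembrane proteases. With the 95th percentile of 84 keratin-associated protein and beta-defensin probe sets as the level (6.82, 6.91 and 6.87 log2 on arrays 1, 2 and 3), limma called 4 members above it, Adam10, Adam17, Mmp14 and Mmp16, against 21.1% of all genes. Secreted proteases gave 0 of 34 and inhibitors 0 of 4 at that level, with 1 of each class at an unadjusted p under 0.05. These counts use the mean of a gene's probe sets. The highest probe sets of Adamts9 (mean 7.96 log2) and Adamts17 (7.70 log2) lay over that level, and single probe sets were not tested against it. Timp2 had a mean 0.26 log2 over that level (limma, adjusted p = 0.0992) and Adamts9 0.15 log2 (limma, adjusted p = 0.122). Mmp16, which was called, also lay 0.26 log2 over it. The arrays differed more in Timp2 (SD 0.22 log2) than in Mmp16 (SD 0.01 log2), so these calls do not separate the classes by level. At the 99th percentile of olfactory receptors (6.01, 6.10 and 6.08 log2), 12 members were called, against 35.3% of all genes. They were 5 membrane-anchored proteases (the same 4 and Adam9), 6 secreted proteases and Timp2, so that the order of the class shares was not the same at every level. At lower levels the calls grew to 34 members with the 90th percentile of olfactory receptors (63.7% of all genes) and 35 with the 95th percentile of 170 vomeronasal receptor probe sets (65.8%). The genes added at both were Adam4, Adam21, Adamts4, Mmp7, Mmp9, Mmp10 and Mmp17, and vomeronasal receptors also added Adamts16.
With the level as in the first count, other treatments of the values gave 22 to 28 members. Members called were 27 after quantile normalization (52.8% of all genes), 28 with the probe set of highest mean for each gene (53.4%), 27 without the lowest 25% of genes (71.0% of the genes kept) and 24 with an SD floor for identical values (51.1%). A rule that asks only for a value above the level on every array gave 28 (54.0%). Leaving out array 1, 2 or 3 gave 22, 26 and 22 members, against 48.5%, 52.8% and 48.8% of all genes.

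Promoter sequence was available from RefSeq (GRCm38.p6) for 48 of the 78 members, matched by symbol, as windows of 250 bases before to 50 bases after the annotated start. The arrays gave signals and not promoter activity, and motif matches are described as letters found in these windows. The 4 stretches printed here contrast Mmp14 and Timp2, which were above background on every array, with Mmp13 and Mmp3, which were not and which belong to the Mmp cluster of chromosome 9. Each is the 150 bases before the start, 5′ to 3′ on the strand of the gene. Capitals mark 4 motifs searched on both strands: TATAAA (the letters of a TATA box), TGANTCA (the core of AP-1 sites), AGGAAGT (the site named for PEA3, the product of Etv4) and GGGCGG (the GC box bound by Sp1). Matches of different motifs overlapped in 0 cases in the member promoters. The stretches lie at chr14:54431448-54431597 on the plus strand, chr11:118355412-118355561 on the minus strand, chr9:7272364-7272513 on the plus strand and chr9:7445672-7445821 on the plus strand.
Mmp14: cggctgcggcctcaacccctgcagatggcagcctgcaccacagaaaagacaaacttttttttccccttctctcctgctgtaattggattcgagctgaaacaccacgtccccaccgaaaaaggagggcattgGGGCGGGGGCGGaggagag
Timp2: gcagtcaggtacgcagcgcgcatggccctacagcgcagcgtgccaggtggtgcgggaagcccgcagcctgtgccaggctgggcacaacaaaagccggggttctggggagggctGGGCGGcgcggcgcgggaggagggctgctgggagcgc
Mmp13: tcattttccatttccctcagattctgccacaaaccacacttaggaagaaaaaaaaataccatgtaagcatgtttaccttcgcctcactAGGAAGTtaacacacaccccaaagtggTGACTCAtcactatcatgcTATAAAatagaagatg
Mmp3: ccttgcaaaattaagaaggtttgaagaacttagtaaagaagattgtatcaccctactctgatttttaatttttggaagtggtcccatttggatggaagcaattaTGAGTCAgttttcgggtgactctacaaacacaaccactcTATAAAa
The Mmp14 stretch held 2 adjacent GC boxes and the Timp2 stretch held 1. The stretch of Mmp13 held TATAAA, an AP-1 core and the PEA3 letters, and that of Mmp3 held TATAAA and an AP-1 core. The TATAAA lies 16 to 11 bases before the annotated start in Mmp13 and 7 to 2 bases before it in Mmp3, closer to that start than the distance at which a TATA box is usually found.

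Over the whole windows, GGGCGG was found in 15 of 18 members above background (83.3%) and in 6 of 30 members not above it (20%). Among all genes with these calls the shares were 68.4% and 34.5%. All genes here are the 15614 with a promoter window, and a gene held a motif if any of its windows did. GGGCGG was found in 52.9% of these genes and in 35.7% of all 32851 promoter windows. TATAAA was found in 1 of 18 members above background, Adamts1, and in 14 of 30 not above it (46.7%), against 8.53% and 19.6% of all genes. Between 40 and 20 bases before the start, the usual place of a TATA box, it was found in 1 of 18 members above background (Adamts1) and in 3 of 30 not above it (10%; Mmp1a, Mmp7 and Mmp10), against 1.69% and 4.99% of all genes. TGANTCA was found in 1 of 18 members above background, Adam19, and in 12 of 30 not above it (40%), against 5.70% and 10.9% of all genes. AGGAAGT was found in 0 of 18 members above background and 7 of 30 not above it (23.3%), against 9.52% and 10.7% of all genes. Of all promoter windows 13.6% held TATAAA, 7.81% TGANTCA and 9.35% AGGAAGT, against 13.6%, 8.08% and 10.0% of all genes with a window. The 30 members not above background include the 10 Mmp genes of the chromosome 9 cluster, of which 9 held TATAAA and 8 TGANTCA. Those genes are tandem relatives, and other members are paralogues too, so the shares and ratios given here do not rest on separate observations. The ratio of observed to expected CpG pairs had a median of 0.70 in members above background and 0.10 in members not above it, against 0.76 and 0.31 over all genes. Members that were not above background despite a ratio near that of the called ones were Adam23 (0.88), Adamts3 (0.91), Adamts20 (0.92), Adamts14 (1.01) and Mmp25 (0.61).

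**Figure D2:**
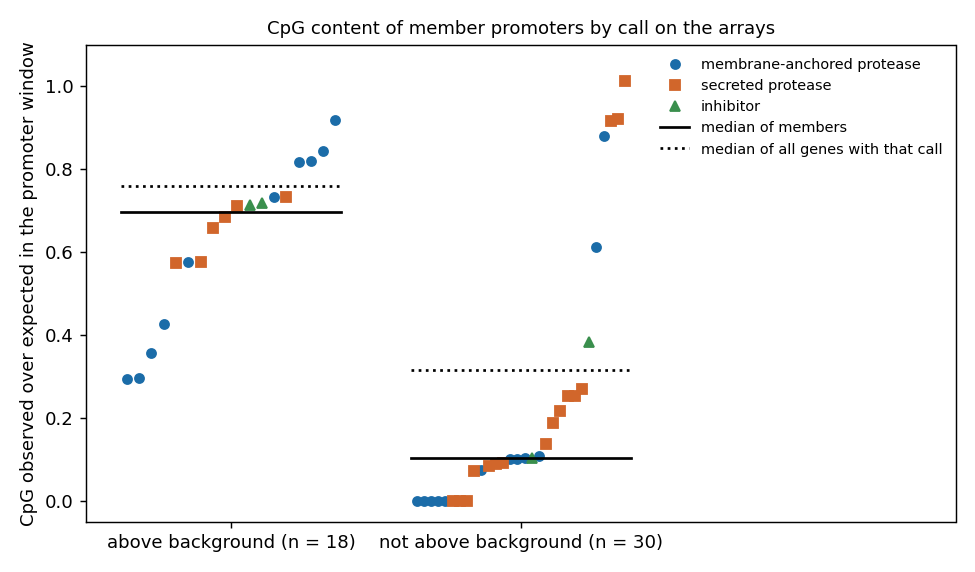
Each point is the ratio of observed to expected CpG pairs in the promoter windows of 1 member (vertical axis), for 18 members above background and 30 not above it, ordered within each call by the ratio. The solid lines are the members' medians of 0.70 and 0.10, and the dotted lines are the medians of all genes with the same call, 0.76 and 0.31. The members not above background include the 10 tandem Mmp genes of chromosome 9, which are not separate observations.

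Transmembrane Mmp genes were above background in 4 of 4 measured genes, against 53.0% of all genes. GPI-anchored ones were above it in 0 of 2 (limma, with 0 also at an unadjusted p under 0.05). Mmp14, the membrane-type collagenase that also activates the precursor of Mmp2, had signals of 7.68, 7.56 and 7.54 log2 on arrays 1, 2 and 3. Its mean of 7.60 ± 0.07 log2 (SD, n = 3) lay 2.18 log2 over background (limma, adjusted p = 6.35e-06). Mmp14 was above the level in all 3 buds, which differed by at most 0.13 log2.
Mmp16, a close relative with the same domain plan, had 7.12, 7.12 and 7.14 log2, which is 1.71 log2 over background (limma, adjusted p = 2.87e-06). Mmp24, known mainly from the nervous system, and Mmp23, which is anchored at its amino-terminal end and released when cut, held the same value in each bud, 5.60 and 5.56 log2. These lay 0.18 and 0.14 log2 over background, and both calls were lost without array 1 or array 3. In either of those fits Mmp24 still lay 0.17 and Mmp23 0.13 log2 over background, but the fits took a spread pooled over all genes. Mmp17, GPI-anchored, was at 5.45 log2 on every array and did not pass (limma, adjusted p = 0.19), while its relative Mmp25, known from neutrophils, was at 4.26 log2. Mmp15, the other transmembrane member, is not analysed here.

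**Figure D3:**
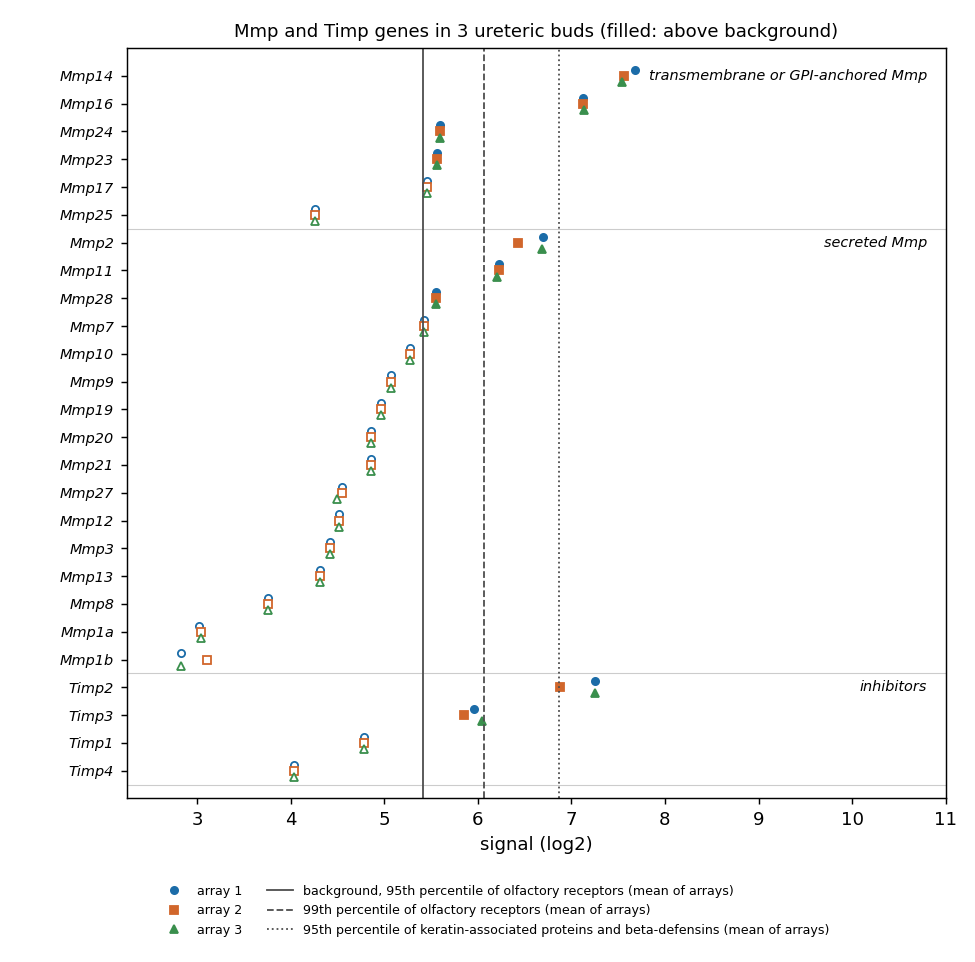
Signals in log2 units (horizontal axis) of the 22 Mmp and 4 Timp genes (rows) on the 3 arrays, with filled symbols for genes above background and lines for 3 background levels averaged over the arrays. Mmp14, Mmp16 and Timp2 are to the right of all 3 lines on every array, and Mmp2 and Timp2 are lowest on array 2. Timp2 on array 2 (6.88 log2) is below that array's own keratin-associated protein and defensin level (6.91 log2).

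Secreted Mmp genes were above background in 3 of 16 (18.8%, against 53.0% of all genes), namely Mmp2, Mmp11 and Mmp28. Mmp2, the gelatinase that cuts denatured collagen and collagen IV, had 6.70, 6.43 and 6.68 log2 on arrays 1, 2 and 3. It averaged 6.60 ± 0.15 log2 (SD, n = 3) and 1.18 log2 over background (limma, adjusted p = 0.000244). All 3 buds were above the level, and array 2 was the lowest. The other gelatinase, Mmp9, known from leukocytes and osteoclasts, was at 5.07 log2 on every array and was not above background. Mmp11, which is activated inside the cell by furin, had 6.23, 6.23 and 6.21 log2 and lay 0.80 log2 over background (limma, adjusted p = 1.73e-05). Mmp28, a member found in epithelia such as skin, was at 5.55 log2 on every array and 0.13 log2 over background. Its call was lost without array 1 or array 3, in fits that took a spread pooled over all genes. It was also lost when identical values were given an SD floor (limma, adjusted p = 0.0864).

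None of the collagenases Mmp1a, Mmp1b, Mmp8 and Mmp13 was above background, against 53.0% of all genes. The count was 0 of 4 by limma, also at an unadjusted p under 0.05. The 4 means were 3.04, 2.92, 3.76 and 4.32 log2 in that order. Among stromelysins and matrilysins, the values were 4.42 log2 for Mmp3, 5.28 for Mmp10 and 5.43 for Mmp7 in every bud. Mmp7, a small protease of glandular epithelia, was 0.01 log2 over background and did not pass (limma, adjusted p = 0.679). The remaining secreted genes, all below background, were the macrophage elastase Mmp12 at 4.51 log2, Mmp19 at 4.97, the enamel protease Mmp20 at 4.86, Mmp21 at 4.86 and Mmp27 at 4.53. The 10 Mmp genes on chromosome 9 (Mmp1a, Mmp1b, Mmp3, Mmp7, Mmp8, Mmp10, Mmp12, Mmp13, Mmp20 and Mmp27) neighbour each other with 0 other protein-coding genes between them in the RefSeq annotation. Of these 0 of 10 were above background (limma, 0 at an unadjusted p under 0.05), against 53.0% of all genes. Their means lay between 2.92 and 5.43 log2, although Mmp10 and Mmp7 were called at the lower levels given above. Their promoter windows held TATAAA in 9 of 10 genes (3 of 10 between 40 and 20 bases before the start, Mmp13 and Mmp3 not among them), TGANTCA in 8 of 10, AGGAAGT in 4 of 10 and GGGCGG in 0 of 10. These genes are tandem relatives, so they are not separate observations.

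Adam genes listed as widely expressed, meaning those outside the testis and epididymis group, were above background in 10 of 12 measured genes (83.3%), against 53.0% of all genes. Several of them are best known from particular tissues or cell types, as given below, so the share is not one of ubiquitous genes. The list was made with earlier results of these data known, so the share is a description only. Adam10, the protease that cuts Notch receptors and cadherins, had 7.74, 7.44 and 7.71 log2 on arrays 1, 2 and 3. It averaged 7.63 ± 0.17 log2 (SD, n = 3) and 2.21 log2 over background (limma, adjusted p = 4.37e-05), and array 2 was the lowest of the buds. Adam17, the sheddase for tumour necrosis factor and for several ligands of the EGF receptor, was at 7.62 log2 on every array, 2.20 log2 over background (limma, adjusted p = 1.47e-06). Both were above the strictest level on all 3 arrays. Adam9, a further active sheddase, was at 6.50 log2 in every bud and its relative Adam15 at 6.15 log2 in every bud, which is 1.08 and 0.73 log2 over background.

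The other called genes of this Adam list lay less than 0.6 log2 over background. Adam8, known from leukocytes, had 5.995, 6.010 and 5.995 log2. Of the 8 leukocyte markers 2 were above background, Cx3cr1 at 6.21 log2 on every array and Cd68 at 6.26, 6.24 and 6.43 log2, and the part of leukocytes in the Adam8 signal was not tested. Adam33, linked to asthma in human genetics, was at 5.83 log2 on every array. Adam11 and Adam22, which have no protease activity and are best known from neurons, were at 5.93 log2 each on every array, whereas the third member of this inactive group, Adam23, was at 4.34 log2 and not above background. Adam19, known from heart cushion development, had 5.73, 5.55 and 5.55 log2 and lay 0.19 log2 over background (limma, adjusted p = 0.03). Its call was lost without any 1 of the 3 arrays, in fits whose prior differed from that of the full fit. Adam12, a protein of regenerating muscle and placenta, had 5.52, 5.49 and 5.49 log2 and lay 0.08 log2 over background (limma, adjusted p = 0.0394). The Adam12 call was lost without array 1 or array 3, in fits that took a spread pooled over all genes. It was also lost when identical values were given an SD floor. Adam28, known from lymphocytes and epididymis, was at 4.34 log2 on every array and not above background.

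Of the 22 Adam genes known mainly from testis or epididymis, Adam1a was above background at 5.85 log2 on every array (limma, adjusted p = 0.000118). Of all genes 53.0% were above it, and this Adam list was made with earlier results of these data known. The other 21 genes of the list had means from 2.39 to 5.20 log2, with a median of 3.83 log2, and 16 of them were identical on all 3 arrays. They include the sperm genes Adam2 at 3.83 log2 and Adam3 at 4.05 log2. Adam4 and Adam21 (5.20 and 5.10 log2) were called at the lower levels given above.

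**Figure D4:**
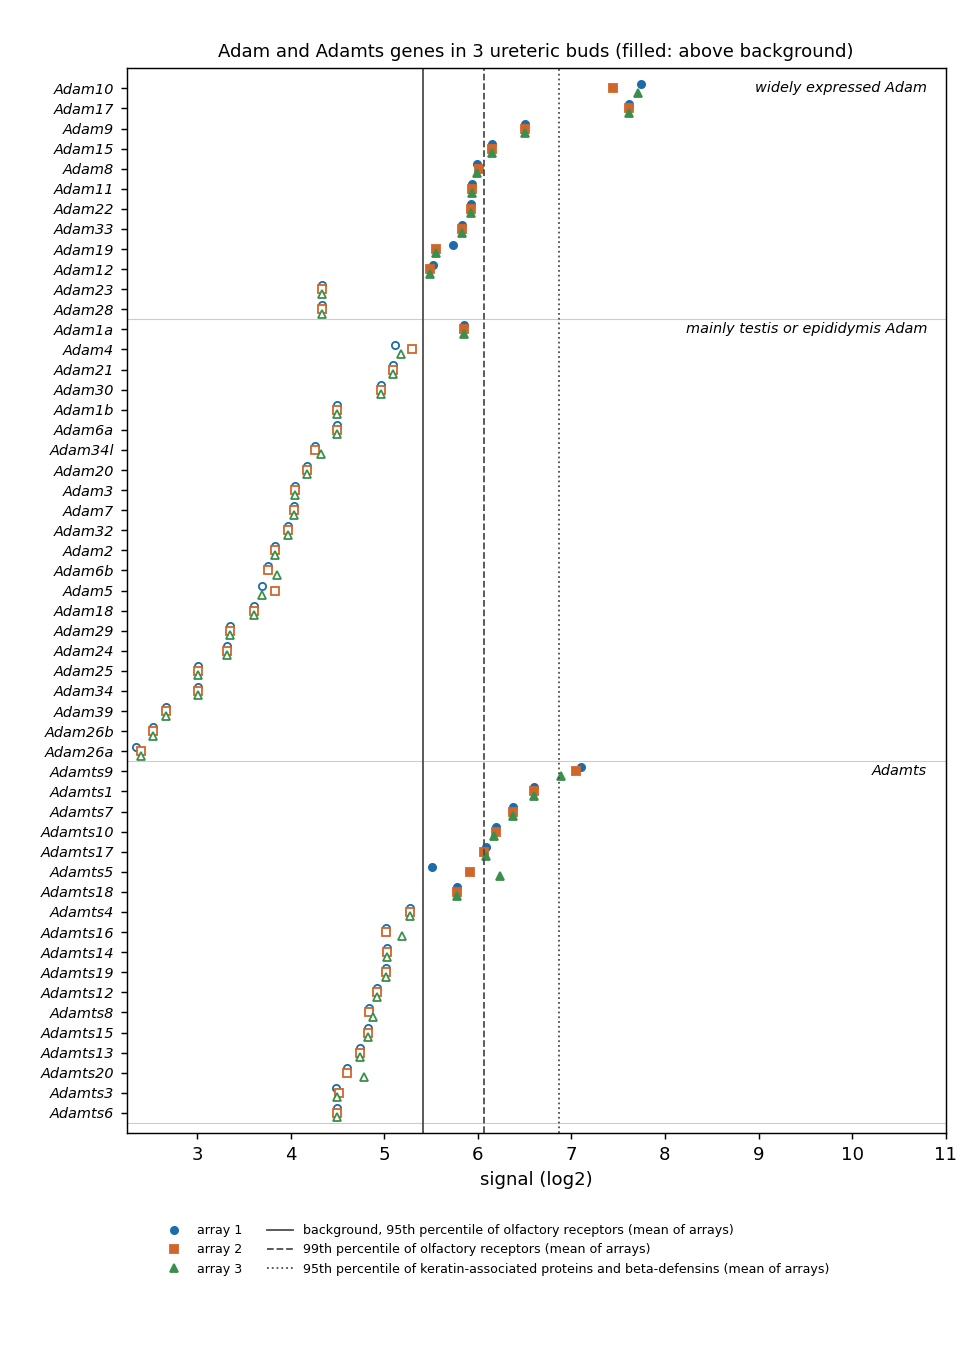
Signals in log2 units (horizontal axis) of the 34 Adam and 18 Adamts genes (rows) on the 3 arrays, with filled symbols for genes above background and lines for 3 background levels averaged over the arrays. Of the Adam genes labelled widely expressed, which are those outside the testis and epididymis group, 10 of 12 are filled, against 1 of 22 in that group. Of all genes 53.0% were above background. The gene lists were made with earlier results of these data known, so these counts are a description only. The 3 buds stand furthest apart in Adamts5.

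Adamts genes were above background in 7 of 18 (38.9%), against 53.0% of all genes. Among the enzymes that cut aggrecan, versican and related proteoglycans, 3 of 7 were above it (42.9%). Adamts9, with a role in secretion and in cilium formation besides versican cleavage, had 7.10, 7.05 and 6.89 log2 as the mean of 6 probe sets and lay 1.60 log2 over background (limma, adjusted p = 2.38e-05). All 6 probe sets were above the level on every array, with means from 5.78 to 7.96 log2, but 2 of them disagreed on the order of the buds. One had 7.04, 7.81 and 6.53 log2 on arrays 1, 2 and 3, with array 2 the highest, and the other 8.49, 7.44 and 7.96 log2, with array 2 the lowest. Adamts1, whose loss in mice causes obstruction where the ureter leaves the kidney, was at 6.60 log2 on every array and 1.18 log2 over background (limma, adjusted p = 6.31e-06).

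Adamts5, the main aggrecan-cutting enzyme of mouse cartilage, had 5.52, 5.92 and 6.24 log2 on arrays 1, 2 and 3. It averaged 5.89 ± 0.36 log2 (SD, n = 3), 0.47 log2 over background (limma, adjusted p = 0.0388). Array 3 was highest and array 1 lowest, and the call was lost without array 2 (limma, adjusted p = 0.195), with the level over background still at 0.47 log2. Adamts4, Adamts8, Adamts15 and Adamts20 were not above background, at 5.28, 4.85, 4.83 and 4.67 log2. Of the procollagen amino-terminal proteinases, which trim the precursors of fibrillar collagens, Adamts3 averaged 4.50 log2 and Adamts14 5.03 log2. Neither passed (0 of 2 by limma, also at an unadjusted p under 0.05), against 53.0% of all genes above background. Adamts2, the remaining gene of this group, is not analysed here. Adamts3 is the mean of 16 probe sets with means from 2.75 to 5.94 log2, of which 2 were above the level on every array. It was called when the probe set with the highest mean was taken instead (limma, adjusted p = 0.00017).

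Of the other Adamts genes 4 of 9 were above background (44.4%), against 53.0% of all genes. Adamts7, which cuts the cartilage protein COMP, was at 6.37 log2 on every array, and Adamts10, which acts on fibrillin microfibrils, had 6.19, 6.19 and 6.18 log2. They lay 0.95 and 0.77 log2 over background. Adamts18, a gene with roles in eye and lung development in mice, was at 5.78 log2 on every array. Adamts17 averaged 6.08 ± 0.01 log2 (SD, n = 3) over 5 probe sets, whose means ran from 4.75 to 7.70 log2, and 3 of these were above the level on every array. Below background were Adamts6 (4.50 log2), Adamts12 (4.92), Adamts13, the protease of von Willebrand factor (4.75), Adamts16 (5.08) and Adamts19 (5.02).

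Timp inhibitors were above background in 2 of 4, against 53.0% of all genes. Timp2, which together with Mmp14 forms the complex that activates Mmp2, had 7.25, 6.88 and 7.25 log2 on arrays 1, 2 and 3. Its mean of 7.13 ± 0.22 log2 (SD, n = 3) was 1.71 log2 over background (limma, adjusted p = 0.000197), with array 2 the lowest. All 3 genes of this activation complex, Mmp14, Timp2 and Mmp2, were thus above background on each bud. Timp3, which binds to the matrix and also inhibits Adam17, had 5.96, 5.86 and 6.05 log2 and lay 0.54 log2 over background (limma, adjusted p = 0.00102). Timp1 and Timp4 were at 4.78 and 4.04 log2 on every array and not above background.

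Differences between buds could be read for the 26 of 78 members whose values were not identical on the arrays. These had a median range of 0.11 log2, against 0.18 log2 for the 9627 genes with differing values. The range exceeded 0.2 log2 in 6 members (7.69%), against 22.7% of all genes, and exceeded 1 log2 in 0 members, against 2.37% of all genes. The 6 were Adamts5 (0.72 log2), Timp2 (0.38), Adam10 (0.30), Mmp1b (0.28), Mmp2 (0.27) and Adamts9 (0.21). For Adamts9 this is the range of a mean over 6 probe sets, and single ones ranged over 1.28 and 1.05 log2. Of the 26 members 5 were lowest on array 2, namely Adam10, Adamts17, Mmp2, Timp2 and Timp3 (19.2%), against 21.9% of all genes with differing values.
On the same array the 10 endothelial markers were at their lowest, and the 7 erythroid markers averaged 6.41, 5.35 and 6.13 log2 on arrays 1, 2 and 3. Of these 7 erythroid markers, only 3 were lowest on array 2, and 3 were identical on all arrays. The ranges of the 10 endothelial markers ran from 0.13 log2 (Flt1) to 2.83 log2 (Emcn), and those of the 5 members from 0.02 log2 (Adamts17) to 0.38 log2 (Timp2). The 9 stroma markers were identical on all 3 arrays, with Col1a1 and Col3a1 above background at 6.44 and 6.02 log2 and the other 7 below it. The part of other cells in the levels of Mmp2, Timp2, Timp3 and Adam10 was not tested.

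Activators, inhibitors and cofactors of these proteases were above background in 15 of 27 measured genes (55.6%), against 53.0% of all genes. Bsg, the surface protein that induces Mmp production in neighbouring cells, had 9.59, 8.80 and 8.84 log2 and lay 3.66 log2 over background (limma, adjusted p = 0.000125). Tspan15 and Tspan14, tetraspanins that escort Adam10 to the surface, averaged 6.29 ± 0.31 and 6.19 log2 (SD, n = 3), the second identical on all 3 arrays. Reck, a membrane-anchored inhibitor of Mmp14, Mmp2 and Mmp9, was at 5.997 log2 on every array. The Adamts-like matrix proteins Adamtsl4 and Adamtsl5 had 6.23 and 6.08 log2 in every bud. Not above background were Plau, the urokinase gene, at 4.30 log2, its receptor Plaur at 5.01, Plat at 5.05 and Plg at 4.15, all of the plasminogen system, as well as Pcsk7 at 5.33 and Frmd8 at 5.29.

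Membrane proteins known to be shed by Adam proteases were above background in 11 of 19 measured genes (57.9%), against 53.0% of all genes. They include Cdh1, the epithelial cadherin cut by Adam10, at 7.62 ± 0.16 log2 (SD, n = 3), the Notch ligand Jag1 at 7.27 ± 0.02 and the EGF receptor ligand Hbegf at 6.85 ± 0.41. The ligand Tgfa and the syndecans Sdc4 and Sdc1 had 6.72, 7.11 and 6.68 log2 in every bud. The EGF family ligands Egf, Ereg, Epgn, Btc and Nrg1 were not above background, at 5.03, 4.46, 4.38, 5.06 and 5.23 log2, nor was the Notch ligand Dll1 at 4.82.

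Matrix substrates were above background in 13 of 17 genes (76.5%), against 53.0% of all genes. Fibronectin (Fn1) averaged 8.68 ± 0.25 log2 (SD, n = 3) and the laminin chains Lamc1 and Lamb1 8.48 ± 0.13 and 8.20 ± 0.14. The laminin chain Lama1 and the collagens Col4a1 and Col2a1 had 7.15, 6.95 and 6.49 log2 in every bud. Nid1 (5.65 ± 0.50 log2), Acan (4.37 ± 0.06), Ncan (5.50 ± 0.08) and Vwf (5.38, identical on all 3 arrays) did not pass.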

How the data were processed

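RNA of 3 sorted ureteric buds was amplified, labelled with biotin and hybridised to Affymetrix arrays, per the labels' protocols. The authors deposited log2 values, 1 for each probe set of an array, and the submitters' processing notes name Affymetrix Expression Console. The base was inferred from the values, and the background correction, normalization and summarization are unstated. With 3 arrays, precision is limited by their number. Of 35557 probe sets 14486 (40.7%) held an identical value on all 3 arrays (tolerance 1e-06 log2), and 12199 of these shared that value with another probe set. The platform annotation gave 21789 probe sets 1 symbol, 1621 several and 12147 none. Members had 102 probe sets with 1 symbol, all 78 members matched a gene ID in RefSeq (GRCm38.p6, used for names and neighbours), and 0 symbols differed. Probe sets of a gene were averaged, which concerned Adamts3, Adamts9 and Adamts17.

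Each gene's value minus its array's background level was fitted with limma 3.58.1 in R 4.3.3 (lmFit, eBayes, prior of 1.71 degrees of freedom and SD of 0.05 log2), with a one-sided test against 0 and Benjamini-Hochberg adjustment over 19938 genes. The script was checked on simulated data without identical values, so the check does not cover genes with the same value on all arrays. No probe's level was tested against that of another probe, and plots order genes by mean signal for display only. The members and gene lists were chosen with earlier results of these data known. Named genes were every Mmp, Adamts and Timp gene, every Adam gene listed as widely expressed, and the called testis or epididymis Adam genes. In each partner list they were the 6 called genes with the highest mean and the first 6 not called. Flt1, Emcn, the called mesenchyme, stroma and leukocyte markers and Adam2, Adam3, Adam4 and Adam21 were named after their values were seen. Alternatives were other background levels and genes, quantile normalization, the probe set with the highest mean, leaving out the lowest 25% of genes, an SD floor, a rule without a model, and leaving out each array. The fits without array 1 or array 3 used a pooled spread (infinite prior degrees of freedom) and the fit without array 2 a prior of 0.91, so they are not like for like.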

Additional observations from a re-analysis of the deposited data

How the results depend on the processing

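The background level decided most calls. The 27 members called became 12 at the 99th percentile of olfactory receptors (5 membrane-anchored, 6 secreted, 1 Timp). They became 4 at the level of keratin-associated proteins and defensins (4 membrane-anchored, 0 secreted, 0 Timp). At that level 4, 1 and 1 of these classes had an unadjusted p under 0.05 in limma. These counts use gene means, and the highest probe sets of Adamts9 and Adamts17 lay over the keratin-associated protein and defensin level. The median member, at -0.48 log2 over background, was at -0.094 with the 90th percentile, -1.12 with the 99th, 0.13 with vomeronasal receptors, -1.92 at the keratin-associated protein and defensin level and 0.18 without the lowest 25% of genes, where fewer members remain. Below background at the 99th percentile were, in log2 relative to that level, Adam11 -0.13, Adam12 -0.56, Adam19 -0.45, Adam1a -0.21, Adam22 -0.14, Adam33 -0.23, Adam8 -0.063, Adamts18 -0.29, Adamts5 -0.18, Mmp23 -0.50, Mmp24 -0.46, Mmp28 -0.51 and Timp3 -0.11. Below the keratin-associated protein and defensin level were Adam11 -0.93, Adam12 -1.36, Adam15 -0.71, Adam19 -1.25, Adam1a -1.01, Adam22 -0.94, Adam33 -1.03, Adam8 -0.87, Adam9 -0.36, Adamts1 -0.27, Adamts10 -0.68, Adamts17 -0.79, Adamts18 -1.09, Adamts5 -0.98, Adamts7 -0.49, Mmp11 -0.64, Mmp2 -0.26, Mmp23 -1.31, Mmp24 -1.27, Mmp28 -1.32 and Timp3 -0.91. Named genes with a mean below background that were called under another setting were Adamts4 0.24, Mmp10 0.24 and Mmp9 0.033 with the 90th percentile, Adamts16 0.26, Adamts4 0.46, Mmp10 0.46 and Mmp9 0.25 with vomeronasal receptors, and Adamts3 0.52 with its highest probe set. Without 1 array, 22 to 26 members were called, 11 to 15 of them membrane-anchored, 9 secreted and 2 Timp, and the median ran from -0.49 to -0.46. Quantile normalization changed 0 of the 57 calls of named members, and the calls of Adam10, Adam17, Mmp14 and Mmp16 held under every alternative run. The largest range between arrays was 0.72 log2 (Adamts5) as reported and with quantile normalization, and 1.05 (Adamts9) with the highest probe set. No paired analysis was possible because the samples form 1 group. Signal over background limits what can be said of members within 0.2 log2 of the level, and identical values hide the spread between buds.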

Other observations

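The array also held 2 probe sets whose annotation joins members with other genes, which were left out of the gene counts. The one for Gm4787 and Adam4 had 4.14, 4.11 and 4.14 log2 on arrays 1, 2 and 3. The other, for Gm5347, Adam34l, Adam26b, Adam34 and Adam26a, had 3.12 log2 on every array. Neither was above the background level on any array, like the 5 member genes among them measured on their own.

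Identical values were also shared between members. Of the 102 member probe sets 69 held the same value on all 3 arrays, and 65 of these held a value that another probe set of the table also had. Mmp20 and Mmp21 were both at 4.86 log2, Mmp10 and Adamts4 both at 5.28 log2, Adam25 and Adam34 both at 3.01 log2, and Adam1b, Adam6a and Adamts6 all at 4.50 log2. These values are equal within each set as deposited, and the cause was not tested.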
